A study of Drosophila melanogaster with 62 samples.

Results

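The mitochondrial ribosomal protein genes are described here across 62 RNA-seq libraries, each made from a single *Drosophila* oocyte or a single precisely staged embryo. The genes are those of the count table whose FlyBase symbol starts with *mRpL* (large subunit) or *mRpS* (small subunit), and 72 of the 17510 genes in the table met this rule, 47 *mRpL* and 25 *mRpS*. The annotation holds 73 such symbols, and *mRpS5* could not be matched to the table and was not analysed here. The rule uses names alone.

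Mitochondria carry their own ribosome, which makes the few proteins encoded by the mitochondrial genome, all of them subunits of the oxidative phosphorylation complexes. Its ribosomal RNAs come from the mitochondrial genome, whereas its proteins are encoded in the nucleus, made in the cytosol and imported. In many animals the egg supplies the early embryo with its mitochondria and with a store of messenger RNA, and maternal messages are cleared while the embryo's own genome is switched on, a handover called the maternal-to-zygotic transition. BRAT is an RNA-binding protein that, by the study's account, acts in this period on both the translation and the stability of messages. The study also describes it as needed for the decay of maternal messages.

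The groups were *brat* mutants (labelled *brat Df/fs1*, a deficiency over the female-sterile *fs1* allele), *brat* hets (*Df* or *fs1* over the *CyO* balancer, without a label for which allele a given library carried) and controls (*w;His2AVRFP(III)*, called *HisRFP*). The study's methods give the His2Av-RFP transgene, a fluorescent histone used to count nuclear cycles, to all 3 genotypes, so the controls carry it as well. Samples were late-stage oocytes dissected from mothers of each genotype, and embryos in nuclear cycles (NC) 10, 12 and 13 and in an early and a later part of NC14. *brat* hets cover oocytes, NC10, NC12 and later NC14. A group holds 4 libraries, lettered A to D, or at NC13 only 3, which lack the letter B. The labels give neither the age of the mothers nor whether the oocytes or embryos of a group came from separate mothers, so p-values measure the spread between these libraries. Levels are given in CPM, the reads of a gene for each 1000000 counted reads after TMM scaling over all libraries. They are shares of a library, so a lower share of a gene and more RNA from other genes cannot be told apart, nor can fewer cells of a type and less RNA per cell.

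Libraries held between 4000899 and 41029921 reads counted on genes, with a median of 13015435.5. Depth went with stage. Group medians at NC13 and early NC14 were 23339243 and 24644249 in *HisRFP* and 26609499 and 24352258 in *brat* mutants. In the other groups they lay between 6275641 and 15760999. Changes into and out of NC13 and early NC14 thus cannot be told apart from a difference in depth. The *brat* RNA itself was lower in *brat*-mutant than in *HisRFP* oocytes (510 ± 26.8 against 757 ± 195 CPM, SD, n = 4 each) and at NC10 (558 ± 106 against 854 ± 110 CPM, SD, n = 4 each). It was higher at early NC14 (990 ± 28.7 against 101 ± 5.65 CPM, SD, n = 4 each), so its level alone does not test the loss of function. Eggshell genes, which follicle cells express, summed to between 6199 and 31002 CPM in *HisRFP* oocytes B, C and D but to 2.9 CPM in oocyte A, to between 17598 and 59902 CPM in *brat* het oocytes and to between 55.4 and 266 CPM in *brat*-mutant oocytes. A list of blastoderm genes transcribed by the embryo summed to 0.1 CPM in *brat*-mutant NC10 embryo A and to between 11.3 and 31.8 CPM in B, C and D. Cytosolic ribosomal protein genes summed to 145302 CPM in *brat*-mutant early NC14 embryo C and to between 106665 and 113019 CPM in the other 3. Counts of called genes are given below with and without these libraries where they change. All 37 mitochondrially encoded genes of the table were listed at 0 in every library, so the RNA partners of these proteins were not measured.

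*mRpL53* (FBgn0050481, dm6 2R from 13954195 to 13955664 on the plus strand) had 0 reads in every library. All of its 829 exon bases overlap *CG33155* on the same strand or *AGO1* on the opposite strand, and reads that overlap several genes were not assigned. Its 0 therefore sets no limit on its level, and 71 genes had a level. Exons of 43 of the 72 genes overlap those of a neighbour. The overlap passed 50% for *mRpL53* and for *mRpS24* (55.3%, with *TBC1d7*), and 8 genes had over 20%. Among the genes named below, *mRpS9* has 25.1% of its exon bases under *ArgRS-m* and *mRpS18C* has 11.0% under *CG15536*, so their levels are lower bounds on all reads of the gene. The genes lie on X (11), 2L (12), 2R (12), 3L (16) and 3R (21), and their merged exons run from 327 to 2078 bases with a median of 783.

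In *HisRFP* oocytes the levels per kilobase of exon ranged from 11.5 CPM per kb for *mRpS24* to 196 CPM per kb for *mRpL12*, with a median of 43.9. The median was 41.6 CPM per kb over the *mRpL* genes and 44.2 over the *mRpS* genes. *mRpL12* (FBgn0011787, 3L from 8956791 to 8957584, plus strand) encodes the protein of the flexible stalk that, in bacteria, recruits translation factors. At NC10 it was again the highest, at 199, 151, 154 and 150 CPM per kb in *HisRFP* embryos A to D. *mRpL1* followed at 102, 90.5, 86.8 and 89.5 CPM per kb, and *mRpS30*, whose mammalian counterpart sits in the large subunit despite its name, at 77.6, 71.4, 72.7 and 86.5 CPM per kb. *mRpL12* lay above the others in every library, whereas the ranges of *mRpL1* and *mRpS30* approached without crossing. The lowest at NC10 were *mRpL2* (6.76 to 8.80 CPM per kb over the 4 embryos), *mRpL38* (6.58 to 9.45) and *mRpS25* (8.10 to 10.1), whose ranges overlapped. In oocytes their group means had been 24.6, 57.7 and 43.8 CPM per kb.

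The levels of this family's messages changed unevenly from the oocyte on in *HisRFP* embryos. From the oocyte to NC10, 18 of 71 genes fell and 0 rose (edgeR's quasi-likelihood test, Benjamini-Hochberg adjusted p under 0.05). Over all 7415 genes tested, 18.4% fell and 9.09% rose. The count stayed at 18 without *HisRFP* oocyte A and was 28 without *HisRFP* NC10 embryo A. The members' median log2 fold change was -0.33, beside -0.04 over all genes. By more than 2-fold 12 of 71 fell (16.9%), beside 10.7% of all genes, and 29 had an unadjusted p under 0.05.

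*mRpL38* (FBgn0030552, X from 14226289 to 14227949, plus strand), a protein found in mitochondrial but not bacterial ribosomes, had the largest fall. It stood at 96.2, 61.9, 88.8 and 76.3 CPM in *HisRFP* oocytes A to D and at 13.2, 12.8, 12.5 and 9.21 CPM at NC10. Every NC10 embryo lay far below every oocyte, with a log2 fold change of -2.84 (SE 0.18, adjusted p 1.2e-05). *mRpS25* went from 37.4, 28.4, 22.0 and 24.5 CPM to 6.46, 5.19, 5.90 and 5.26 CPM, a log2 fold change of -2.36. *mRpL46* (FBgn0035272, 3L from 1777439 to 1778347, plus strand) went from 57.2, 41.01, 41.5 and 41.9 CPM to 13.3, 8.88, 9.70 and 9.26 CPM, a log2 fold change of -2.21. For none of these 3 did the groups overlap, which their choice required. Members named for a change between stages or genotypes were mostly picked as the largest among those that passed in groups without overlap.

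To describe the course, the 71 genes were sorted by their *HisRFP* NC13 mean as a percentage of the oocyte mean, a split made after the values were seen and used only as description. Below 10% lay 12 genes, here called cleared: *mRpL2*, *mRpL3*, *mRpL22*, *mRpL37*, *mRpL38*, *mRpL43*, *mRpL46*, *mRpL47*, *mRpS2*, *mRpS25*, *mRpS34* and *mRpS35*. They come from both subunits, 8 large and 4 small. From 10% to 50% lay 14, here called reduced, and 45, here called kept, lay at 50% or more. These names describe levels in the libraries. Whether a message was degraded or less well captured in a library was not tested. Nearest to the lower limit were *mRpS34* inside it, at 6.99% of the oocyte, and *mRpL21* outside it, at 21.2%. Around the upper limit lay *mRpL48* at 49.6% and *mRpL36* at 52.4%. Of all 6231 genes with an oocyte mean of at least 5 CPM, 18.1% lay under 10% at NC13.

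The median level of the cleared genes was 33.6% of the oocyte at NC10, 8.28% at NC12, 2.36% at NC13, 2.03% at early NC14 and 16.5% at later NC14. The kept genes had medians of 92.5%, 83.8%, 92.6%, 101% and 80.4% at the same stages. The reduced genes lay between them and reached 32.4% at early NC14. Their oocyte levels had been alike, with medians of 44.0 CPM per kb for the cleared, 42.4 for the reduced and 44.2 for the kept genes. Proteins that meet in the same assembled subunit were thus encoded by messages with very different courses.

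**Figure D1:**
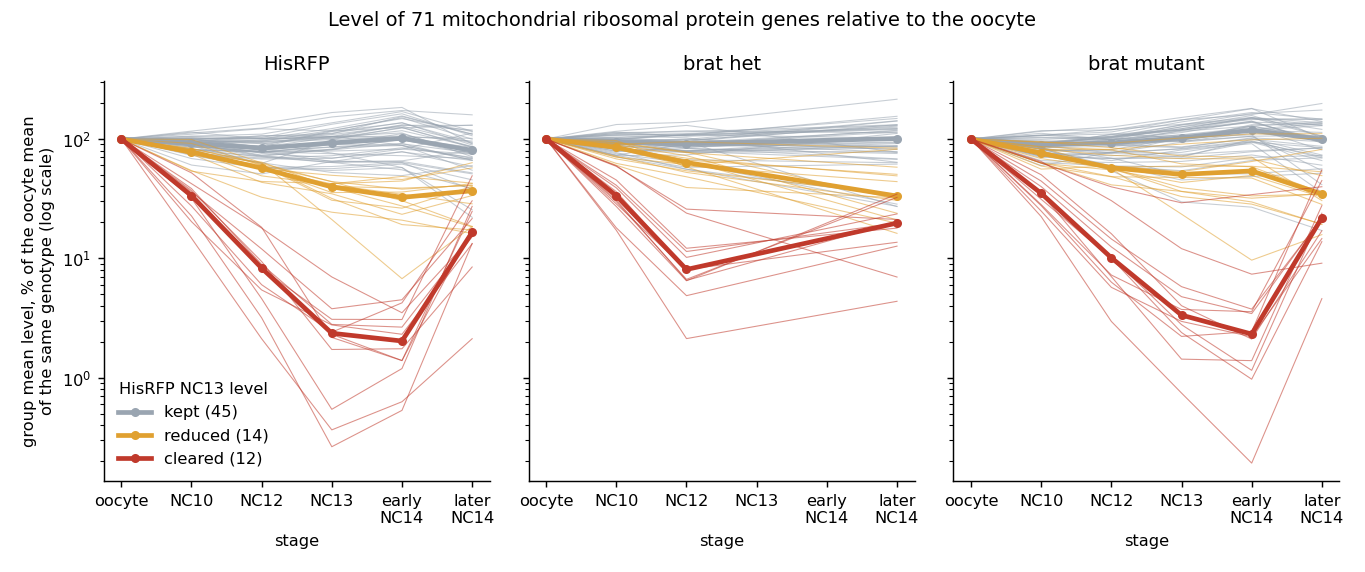
Group mean of each of the 71 mitochondrial ribosomal protein genes as a percentage of the oocyte mean of the same genotype (log axis) by stage, in *HisRFP*, *brat* het and *brat*-mutant samples. Thin lines are genes, thick lines with points are medians of the 12 cleared, 14 reduced and 45 kept genes, and *brat* hets have no NC13 or early NC14 samples. The cleared genes in *HisRFP* drop to a median of 2.03% at early NC14 and return to 16.5% at later NC14, while the kept genes stay between 80.4% and 101%.

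The *HisRFP* level at NC13 chose the classes, so falls of cleared genes in the steps up to NC13 follow in part from that selection. Their counts are only a description. From NC10 to NC12, 18 members fell, all 12 cleared genes among them, and 1 rose, beside 22.9% and 10.9% of all genes (members' median -0.18, all genes 0.06). The 1 that rose was *mRpS30*, with a log2 fold change of 0.28 (SE 0.09, adjusted p = 0.0411), in groups that overlapped. From NC12 to NC13, 15 fell and 3 rose, beside 24.3% and 21.7% of all genes, and 9 of the 15 were cleared and 6 reduced genes. This step was the least secure: no member passed without *HisRFP* NC12 embryo A, B or D or without NC13 embryo A, and scaling by library totals gave 17 lower and 0 higher. Same-lettered embryos of these 2 stages deviated together, and the fit paired by letter gave 12 lower and 0 higher.

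From NC13 to early NC14, 0 of the 70 members tested passed edgeR's test, as did 0 (0%) of all 7676 genes. At an unadjusted p under 0.05 there were 3 members and 1800 genes, and DESeq2 called 1 member and 516 genes. Cleared genes were near the floor of detection at these stages. *mRpL46* had 7, 0 and 1 reads in NC13 embryos A, C and D, and 12, 0, 2 and 12 reads in early NC14 embryos A to D.

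Between early and later NC14 the cleared genes rose together. Of 71 members, 15 rose and 8 fell, beside 25.6% and 21.7% of all 8011 genes tested, and all 12 cleared genes were among the 15. Their median log2 fold change was 2.82, from 1.91 for *mRpL38* to 4.72 for *mRpL46*. The cleared genes were chosen for low levels at NC13 and had little room to fall further, so this count is only a description. Of the 6231 genes with an oocyte mean of at least 5 CPM, 24.6% lay under 10% of the oocyte at early and 17.2% at later NC14. *mRpL46* stood at 0.547, 0, 0.110 and 0.310 CPM in early and at 7.33, 3.37, 6.42 and 7.10 CPM in later NC14 embryos. Every later embryo was above every early embryo, yet the group mean was still 13.3% of the oocyte. *mRpS18C*, *mRpS6* and *mRpL21* were the others that rose. The 8 that fell were kept genes, led by *mRpS23* (-1.23), *mRpL10* (-1.02) and *mRpS30* (-0.87 on the log2 scale). The split between rises and falls depended on the fit, with 17 higher and 15 lower by DESeq2 and 15 higher and 25 lower with all 62 libraries in a common fit.

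From NC10 to later NC14 as a whole, 16 members were called higher and 22 lower in *HisRFP*, beside 41.9% and 35.8% of all 8636 genes. This count depends on scaling. The median log2 fold change of all genes was 0.23 with TMM, 0.51 with RLE factors and -0.19 with library totals, and the members' median moved with it, from -0.04 to 0.23 and -0.47. The counts were then 25 higher and 16 lower with RLE factors and 1 higher and 36 lower with library totals, and a common fit of all libraries gave 5 and 33. In each of these scalings the members' median lay below that of all genes.

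The 3 falls named for this span were *mRpL38*, *mRpL21* and *mRpL12*. *mRpL21* stood at 43.4, 36.2, 34.5 and 34.7 CPM at NC10 and at 8.07, 3.85, 7.79 and 8.01 CPM at later NC14, a log2 fold change of -2.10 (SE 0.19, adjusted p 1.10e-09). *mRpL12* went from 147, 112, 114 and 110 CPM to 21.8, 22.5, 25.8 and 30.4 CPM, a log2 fold change of -1.95. Thus the highest member per kilobase in the oocyte lost that place, and at later NC14 *mRpS7* led at 83.7 CPM per kb.

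Rises over the same span were smaller. *mRpS9*, whose bacterial homologue reaches the peptidyl-tRNA with its tail, went from 72.7, 58.4, 57.7 and 68.5 CPM to 94.6, 91.3, 95.7 and 83.1 CPM, a log2 fold change of 0.82. The choice of these named rises required groups without overlap. *mRpL11* rose from 36.7, 28.5, 25.8 and 29.6 CPM to 41.2, 38.0, 38.8 and 41.9 CPM (0.73), and *mRpL28* from 78.1, 67.9, 58.5 and 69.3 CPM to 79.6, 88.0, 82.6 and 93.5 CPM (0.65). With library totals *mRpS9* still passed (0.39), whereas *mRpL11* (0.30, adjusted p = 0.0678) and *mRpL28* (0.22, adjusted p = 0.193) did not. With all libraries in a common fit the 3 log2 fold changes were 0.50, 0.41 and 0.33, and each passed.

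The messages for the proteins of the stalk and its base did not keep step with each other. In bacteria L10 anchors copies of L12 and neighbours L11. In *HisRFP* embryos *mRpL10* fell with *mRpL12*, from 67.5, 51.1, 59.1 and 62.05 CPM at NC10 to 11.6, 21.3, 15.0 and 17.5 CPM at later NC14 (log2 fold change -1.55, SE 0.20, adjusted p 2.71e-07), while *mRpL11* rose, a call lost with library totals. The timing of the first 2 also differed. *mRpL12* was already at 53.1, 33.3 and 51.8 CPM at NC13, whereas *mRpL10* was at 56.0, 39.2 and 51.6 CPM, of which 39.2 CPM lay under its NC10 range.

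The messages of the 3 paralogues of bacterial S18 took 3 different courses. In mammals, the A form was placed in the large subunit and the B and C forms in the small. *mRpS18A* fell from 52.0, 32.6, 42.7 and 40.2 CPM at NC10 to 12.0, 6.02, 8.43 and 10.7 CPM at later NC14 (-1.85 on the log2 scale). *mRpS18B* stayed between 37.8 and 52.5 CPM in every *HisRFP* embryo from NC10 to early NC14 and stood at 26.4, 24.3, 28.2 and 26.9 CPM at later NC14 (-0.55). *mRpS18C* went from 19.2, 14.9, 12.5 and 13.8 CPM to 19.0, 16.2, 16.4 and 19.6 CPM (0.56, adjusted p = 0.00663), groups that overlapped. Its group means of 15.1 and 17.8 CPM differ by less than the fitted fold change, which rests on the other scaling described above.

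*brat*-mutant samples were compared with *HisRFP* samples of the same stage. These genotypes come from different stocks, so an effect of BRAT loss and one of the stock background cannot be told apart. *brat*-mutant oocytes did not differ detectably. By edgeR 0 of 71 members passed, beside 1.49% of 7310 genes, with 3 members at an unadjusted p under 0.05 and 1 called by DESeq2. The members' median log2 fold change was 0.03, beside -0.03 over all genes. At NC10, 0 passed as well (5.77% of all genes), with 7 at an unadjusted p under 0.05 and 2 by DESeq2. Without *brat*-mutant NC10 embryo A, 4 were called, 2 in each direction, and without *brat*-mutant embryo B or *HisRFP* embryo A 2 and 1 were called. Embryo A held 45.2 CPM of *mRpL38* where B, C and D held 5.69, 9.84 and 11.8 CPM, and its maternal germline list summed to 2014 CPM against 1034 to 1182 CPM. The part of these differences in the results was not tested.

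From NC12 on, members tended to be higher in *brat* mutants than in *HisRFP*. In *brat* hets the medians against *HisRFP*, given below, were 0.13 at NC12 and 0.26 at later NC14. In *brat* mutants the members' median log2 fold change was 0.19 at NC12, 0.25 at NC13, 0.33 at early NC14 and 0.25 at later NC14. Over all genes these medians were -0.01, -0.02, -0.06 and -0.03. At NC12, 6 members were higher and 1 lower (6.38% and 5.04% of all genes). At NC13, 4 were higher and 0 lower (3.02% and 1.34%). At early NC14, 22 were higher and 3 lower (12.7% and 8.90%), and at later NC14, 19 were higher and 1 lower (11.7% and 11.8%). The share of members called higher at early NC14 was above the share of all genes at that stage, and the share called lower was below it.

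**Figure D2:**
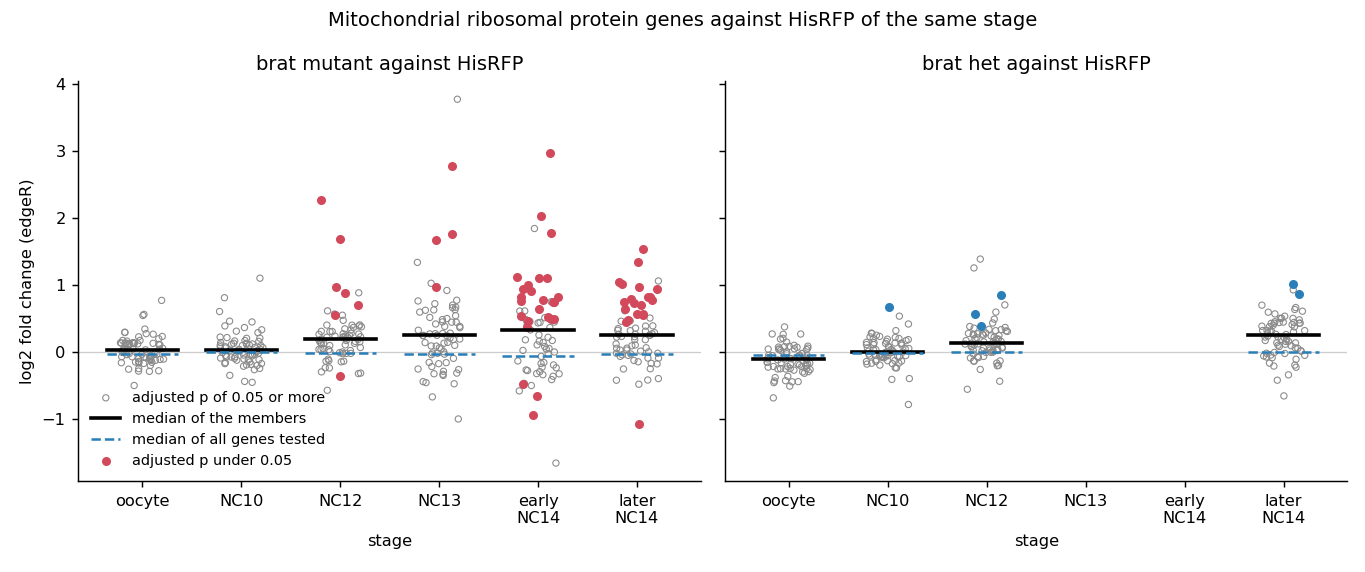
Log2 fold change of each member against *HisRFP* of the same stage, for *brat* mutants (left) and *brat* hets (right), from edgeR. Filled points have an adjusted p under 0.05, open points do not, black bars are the medians of the members and dashed lines those of all genes tested. In *brat* mutants the members' median runs from 0.03 in oocytes to 0.33 at early NC14, while the median of all genes stays between -0.06 and 0.00.

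These counts rested on small groups. Counts under other fits are given without the share of all genes in the same fit, so they show only how far the counts move. At NC12 the total was 3 without *HisRFP* embryo D and 4 without *brat*-mutant embryo C, and 13 by DESeq2. At NC13, with 3 embryos a group, it was 0 without *HisRFP* embryo A or D or *brat*-mutant embryo C or D and 2 without *HisRFP* embryo C, against 11 by DESeq2 and 14 in a common fit. At early NC14 it was 15, 16 and 14 without *brat*-mutant embryos A, C and D, and at later NC14 13 and 12 without *brat*-mutant embryos A and B. With the letter as a block the counts at the last 2 stages were 13 higher and 0 lower, and 9 and 0, although the letters were not shown to pair the samples. The embryo's own blastoderm genes summed to between 3182 and 5391 CPM in *brat*-mutant and between 3471 and 6175 CPM in *HisRFP* embryos at later NC14, and their part in the result was not tested.

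*mRpS31* (FBgn0036557, 3L from 16005193 to 16006599, plus strand), a small-subunit protein without a bacterial homologue, had the lowest adjusted p among members at both NC14 stages. At early NC14 it stood at 32.5, 49.5, 37.7 and 39.6 CPM in *brat*-mutant embryos A to D and at 8.62, 11.4, 11.0 and 14.8 CPM in *HisRFP* embryos. The lowest mutant embryo was more than 2-fold above the highest control, and the log2 fold change was 1.77 (SE 0.20, adjusted p = 0.000249). At later NC14 the values were 41.6, 36.9, 35.9 and 46.0 CPM against 13.8, 11.4, 13.0 and 15.7 CPM, a log2 fold change of 1.53 (SE 0.17, adjusted p = 0.000247). At NC12 they were 31.3, 36.8, 32.7 and 32.7 CPM against 19.96, 19.1, 15.6 and 18.7 CPM (0.89), and at NC13 44.7, 32.1 and 34.0 CPM against 13.3, 10.47 and 10.2 CPM (1.68). In oocytes and at NC10 it did not pass. In *HisRFP* its level fell by stage to a mean of 11.3 CPM at NC13, whereas *brat*-mutant means stayed between 33.4 and 40.1 CPM at every stage.

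*mRpS34* (FBgn0285951, 3L from 16348074 to 16348782, plus strand), also a protein particular to mitochondrial ribosomes, had the largest rise at early NC14. *brat*-mutant embryos held 7.82, 9.89, 7.64 and 9.86 CPM and *HisRFP* embryos 0.274, 1.46, 0.605 and 2.04 CPM, a log2 fold change of 2.98 (SE 0.53, adjusted p = 0.00346). No control came near the mutants, though the choice of named members required groups without overlap. It was higher at NC13 as well (1.77, with 6.27, 7.15 and 9.14 CPM against 2.21, 1.80 and 2.54 CPM) and at later NC14 (1.05), when the *HisRFP* level had risen to 4.78 ± 1.81 CPM (SD, n = 4).

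*mRpL3* (FBgn0030686, X from 15761248 to 15762663, plus strand) is the homologue of a bacterial protein that reaches towards the site of peptide bond formation. At NC13 *brat*-mutant embryos A, C and D held 7.01, 12.6 and 12.1 CPM and *HisRFP* embryos 1.68, 1.05 and 1.85 CPM, a log2 fold change of 2.79 (SE 0.42, adjusted p = 0.0215). At early NC14 the values were 6.13, 6.77, 6.33 and 6.60 CPM against 0.684, 1.78, 0.934 and 2.79 CPM (2.04, adjusted p = 0.00809). By later NC14 the genotypes overlapped, at 9.63, 10.2, 6.53 and 5.62 CPM against 4.44, 6.26, 6.42 and 12.8 CPM. At NC10 the groups had not overlapped (means of 56.8 and 32.8 CPM), though no member passed there. At NC12 *mRpL3* was called higher, at 26.7 ± 10.0 CPM in *brat*-mutant and 8.33 ± 4.52 CPM in *HisRFP* embryos (SD, n = 4 each). The calls thus ran from NC12 to early NC14.

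*mRpL46* was higher at NC12, with 7.99, 3.502, 11.6 and 4.99 CPM in *brat*-mutant and 2.09, 1.97, 0.629 and 1.08 CPM in *HisRFP* embryos (log2 fold change 2.27, SE 0.47, adjusted p = 0.0147). Every mutant embryo was above every control, as the choice of named members required. At NC13 *brat*-mutant embryos held 0.964, 1.98 and 2.31 CPM and *HisRFP* embryos 0.310, 0 and 0.0499 CPM, without overlap but without passing (adjusted p = 0.116). At early NC14 the ranges were 0.582 to 1.32 CPM and 0 to 0.547 CPM, again without overlap (adjusted p = 0.156).

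**Figure D3:**
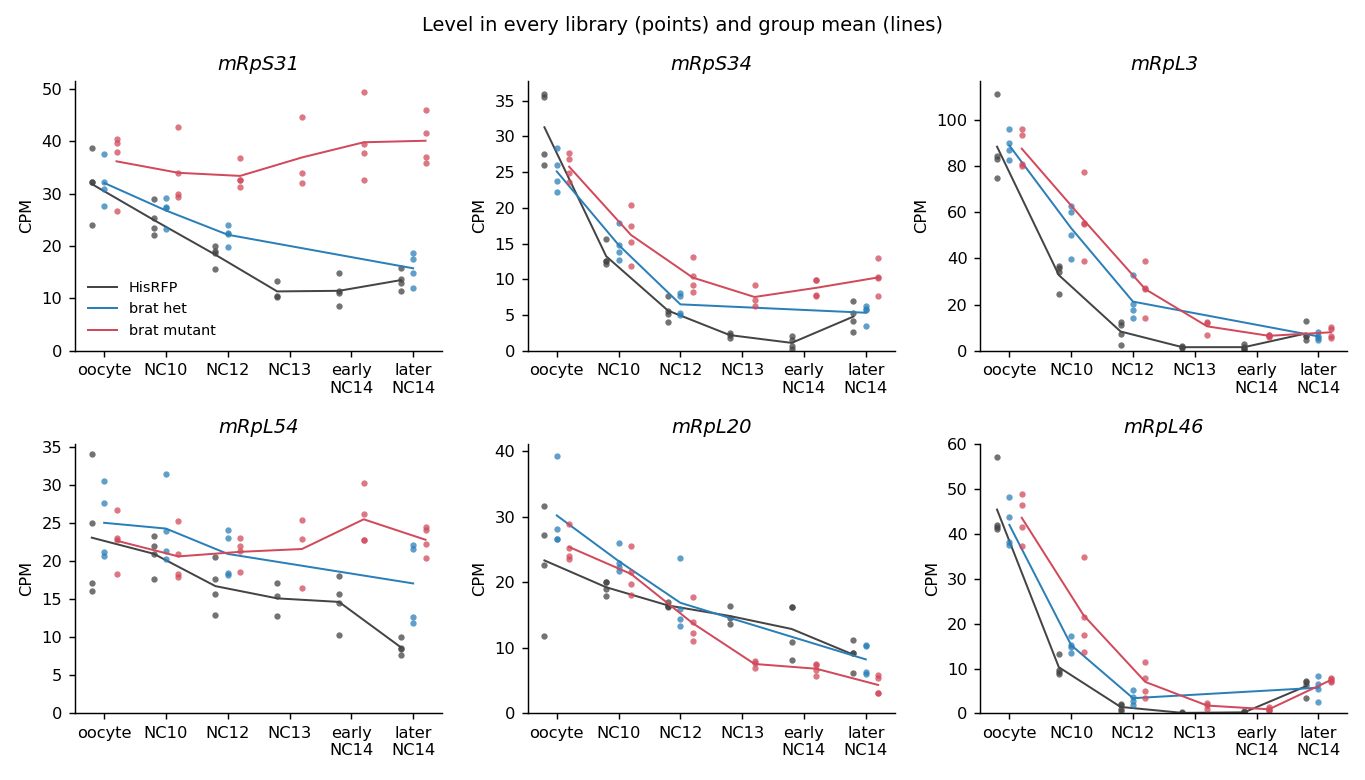
CPM of 6 members in every library (points) with group means (lines) by stage, for *HisRFP* (grey), *brat* het (blue) and *brat*-mutant (red) samples. *mRpS31* stays at 32.5 CPM or more in every *brat*-mutant embryo of early NC14 while *HisRFP* embryos hold at most 14.8 CPM, and *mRpL20* is the member drawn that was lower in *brat* mutants.

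*mRpL54*, a large-subunit protein of mitochondrial ribosomes, had the second largest rise at later NC14. *brat*-mutant embryos held 20.4, 24.5, 22.3 and 24.2 CPM and *HisRFP* embryos 8.66, 8.42, 9.99 and 7.71 CPM (log2 fold change 1.35, SE 0.17, adjusted p = 0.000563). It passed at early NC14 as well, with a smaller log2 fold change of 0.77. The mutant level was near its oocyte level, which was 18.3, 23.0, 26.7 and 22.8 CPM.

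*mRpS29*, known in mammals as the GTP-binding protein DAP3, stood at 35.7, 34.8, 37.6 and 40.96 CPM in *brat*-mutant and 14.7, 17.4, 17.8 and 17.9 CPM in *HisRFP* embryos of early NC14 (1.11, SE 0.16, adjusted p = 0.000978). At later NC14 it stood at 22.0, 19.96, 21.3 and 26.2 CPM against 11.8, 12.6, 15.0 and 13.0 CPM (0.73). Both genotypes fell from NC10, from a mean of 46.9 CPM in *brat*-mutant and 44.2 CPM in *HisRFP* embryos.

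*mRpL4*, whose bacterial homologue lines the exit tunnel of the nascent protein, was a smaller case. At early NC14 it stood at 79.4, 93.9, 90.7 and 89.3 CPM in *brat*-mutant and 61.4, 55.1, 57.0 and 64.0 CPM in *HisRFP* embryos (0.54, SE 0.12, adjusted p = 0.00928). It stayed higher at later NC14 (0.45, adjusted p = 0.0242). The groups did not overlap at either stage.

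At early NC14, 7 of 71 members (9.86%) passed and were more than 2-fold higher, a share near the 9.47% of all genes: *mRpS34*, *mRpL3*, *mRpS31*, *mRpS18A*, *mRpS29*, *mRpL15* and *mRpS6*. At later NC14 there were 4 (5.63%), below the 7.82% of all genes: *mRpS31*, *mRpL54*, *mRpS34* and *mRpL15*. *mRpS18A* stood at 28.8, 41.5, 34.6 and 30.6 CPM in *brat*-mutant and at 12.8, 17.2, 9.84 and 21.3 CPM in *HisRFP* embryos of early NC14 (1.13, adjusted p = 0.00884). *mRpS18B* had a log2 fold change of 0.33 (adjusted p = 0.0987) and *mRpS18C* of 0.45 (adjusted p = 0.127) at that stage. For *mRpS6*, *brat*-mutant embryo C held 92.2 CPM where A, B and D held 42.6, 46.5 and 38.4 CPM.

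*mRpL10* and *mRpL12* had similar log2 fold changes in the same comparison, though only *mRpL10* passed. *mRpL10* stood at 59.8, 63.8, 63.0 and 64.0 CPM in *brat*-mutant and 32.0, 44.8, 24.3 and 46.9 CPM in *HisRFP* embryos of early NC14 (0.74, SE 0.19, adjusted p = 0.0235). *mRpL12* stood at 41.7, 60.2, 44.9 and 43.0 CPM against 17.9, 38.7, 18.0 and 36.6 CPM, without overlap, but did not pass (0.75, SE 0.27, adjusted p = 0.0742). *mRpL11* had a log2 fold change of 0.16 (adjusted p = 0.531). At later NC14 none of these 3 passed.

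Of the members called higher in *brat* mutants, 16 were shared by early and later NC14, out of 22 and 19. That is 22.5% of the members, beside 5.29% of the 7391 genes tested at both stages. They were *mRpL4*, *mRpL14*, *mRpL15*, *mRpL19*, *mRpL30*, *mRpL39*, *mRpL45*, *mRpL49*, *mRpL50*, *mRpL54*, *mRpS17*, *mRpS22*, *mRpS23*, *mRpS29*, *mRpS31* and *mRpS34*. Samples of different stages are separate embryos, so these calls come from different libraries. Across the 6 stages 26 members (36.6%) were called higher at least at 1 stage, beside 18.7% of all genes tested at any stage. By symbol, 13 of 46 *mRpL* genes and 9 of 25 *mRpS* genes were higher at early NC14 (12.7% of all genes), and 13 and 6 at later NC14 (11.7%). *mRpL45*, whose mammalian counterpart ties the ribosome to the inner membrane, was among them, at 94.9 ± 7.94 against 55.4 ± 4.55 CPM at early NC14 (SD, n = 4 each) and 67.2 ± 3.02 against 41.8 ± 1.37 CPM at later NC14 (SD, n = 4 each). At later NC14 every *brat*-mutant embryo lay above every *HisRFP* embryo for each of the 19 except *mRpL30*, as was the case for 90.1% of all genes called higher there. Members named outside the naming rule, such as *mRpL45*, were picked after their values were seen.

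By class at early NC14, of the 12 cleared genes 2 were higher (*mRpL3* and *mRpS34*), of the 14 reduced genes 6 and of the 45 kept genes 14, beside 12.7% of all genes. The reduced genes had a median log2 fold change of 0.68 against *HisRFP* at early NC14, beside 0.17 for the kept and -0.11 for the cleared genes. The *HisRFP* NC13 level chose these classes, so the numbers are a description and the classes were not tested against each other. In *brat* mutants the cleared genes had medians of 35.1%, 10.1%, 3.35%, 2.32% and 21.9% of the oocyte from NC10 to later NC14, but *mRpS34* stood at 34.2% of the oocyte at early NC14 where *HisRFP* had 3.502%, and *mRpL3* at 12.1% at NC13 where *HisRFP* had 1.72%. The reduced genes stood at a median of 54.0% of the oocyte at early NC14 and 34.6% at later NC14.

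Few members were lower in *brat* mutants. *mRpL20*, the homologue of a bacterial protein needed early in large-subunit assembly, was the exception at both NC14 stages. At early NC14 it stood at 6.58, 7.58, 7.42 and 5.67 CPM in *brat*-mutant and at 10.9, 16.2, 8.19 and 16.2 CPM in *HisRFP* embryos (log2 fold change -0.94, SE 0.26, adjusted p = 0.0311). At later NC14 the values were 5.38, 3.12, 5.82 and 3.05 CPM against 9.26, 9.14, 6.23 and 11.2 CPM (-1.07, adjusted p = 0.0321). The groups did not overlap at either stage, as the choice of named members required, and the gap was narrow.

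*mRpL18*, which corresponds to a bacterial protein that binds the smallest ribosomal RNA, was lower at early NC14, with 12.8, 18.3, 14.1 and 13.4 CPM against 21.0, 21.9, 22.1 and 25.0 CPM (-0.65, adjusted p = 0.0276). *mRpS10* was the other (-0.48). *mRpS30* was lower at NC12, with 146, 143, 143 and 137 CPM against 175, 183, 201 and 182 CPM (-0.36, SE 0.08, adjusted p = 0.0188). No mutant embryo reached the lowest control, as the choice of named members required.

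*brat* hets were compared with the same *HisRFP* libraries as the *brat* mutants, so the comparisons share their controls and the values below stand side by side. In oocytes 0 of 71 members passed (3.13% of all genes), with 12 at an unadjusted p under 0.05 and 2 by DESeq2, and 5 were lower without *HisRFP* oocyte B. At NC10 1 member passed (7.13%), at NC12 3 (9.74%) and at later NC14 2 (5.81%), all higher in *brat* hets. The members' medians were -0.11, 0.01, 0.13 and 0.26 over these 4 stages, beside -0.05, -0.01, 0.00 and 0.00 over all genes.

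The NC10 member was *mRpL3*. It stood at 62.8, 50.1, 39.6 and 60.0 CPM in *brat* het and 36.0, 36.7, 24.5 and 34.0 CPM in *HisRFP* embryos (log2 fold change 0.68, SE 0.17, adjusted p = 0.0391). In *brat*-mutant NC10 embryos it stood at 77.4, 39.0, 55.6 and 55.1 CPM. The call was lost without *HisRFP* embryo B, C or D or *brat* het embryo A or B, and 2 members passed without *HisRFP* embryo A.

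At NC12 *mRpS6*, the homologue of the bacterial partner of S18, stood at 38.6, 37.5, 41.7 and 36.3 CPM in *brat* het embryos and 18.9, 24.1, 25.4 and 20.2 CPM in *HisRFP* embryos (0.85, SE 0.15, adjusted p = 0.00759). *brat*-mutant embryos held 36.6, 34.3, 56.6 and 43.7 CPM (0.97 against *HisRFP*), so *mRpS6* passed in both comparisons. *mRpL36*, among the smallest proteins of the large subunit, stood at 12.2, 12.5, 8.87 and 12.6 CPM in *brat* hets and 7.25, 8.07, 8.05 and 8.59 CPM in *HisRFP* (0.57), and *mRpL4* was higher by 0.39 on the log2 scale. The count was 1 without *HisRFP* NC12 embryo A, B or D or *brat* het NC12 embryo B or D.

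At later NC14 *mRpL54* stood at 22.1, 12.7, 11.9 and 21.7 CPM in *brat* hets, above the *HisRFP* range of 7.71 to 9.99 CPM and reaching into the *brat*-mutant range (1.01 against *HisRFP*, SE 0.25, adjusted p = 0.0474). *mRpL41* stood at 13.1, 12.9, 11.6 and 9.63 CPM in *brat* hets, at 11.8, 12.0, 10.8 and 14.3 CPM in *brat* mutants and at 7.11, 6.98, 6.87 and 5.89 CPM in *HisRFP*. Both *brat* groups lay above the controls. These calls were unstable too: 0 members passed without any of *HisRFP* embryos A, B, C and D or *brat* het embryo A, and 1 without *brat* het embryo C or D.

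*brat* mutants were then compared directly with *brat* hets. The members' median log2 fold change was 0.11 in oocytes, 0.03 at NC10, 0.02 at NC12 and 0.04 at later NC14. Over all genes it was -0.004, 0.04, 0.0009 and 0.05. Few members differed. In oocytes 1 was higher in *brat* mutants (13.0% of all genes), *mRpS29*, at 65.1, 85.5, 79.8 and 85.9 CPM against 64.8, 70.2, 63.8 and 58.8 CPM (0.36, adjusted p = 0.0394). The eggshell sums given above do not overlap between these groups, 9 of the 12 eggshell genes tested were lower in *brat* mutants, and their part in the result was not tested. The *mRpS29* call was lost without *brat* het oocyte A, B, C or D, and 2 members passed without *brat*-mutant oocyte C. At NC10 0 passed by edgeR (0.248% of all genes), 1 had an unadjusted p under 0.05 and 0 passed by DESeq2. At NC12 (4.28%) and at later NC14 (2.44%) the 1 member that passed was *mRpS31* at both stages.

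*mRpS31* passed against both other genotypes at these stages. At later NC14 *brat* hets held 14.9, 12.0, 17.5 and 18.6 CPM, close to *HisRFP* and far under the 35.9 to 46.0 CPM of *brat* mutants (log2 fold change 1.34 against *brat* hets, SE 0.20, adjusted p = 0.00688). At NC12 *brat* hets held 23.9, 22.5, 19.8 and 22.4 CPM, below every *brat*-mutant embryo (0.57, adjusted p = 0.0195). The NC12 call was lost without *brat* het embryo B, C or D, whereas the later NC14 call held without each of the 8 embryos in turn.

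Other members also lay above both groups at later NC14 without overlap but did not pass against *brat* hets. *mRpS17* stood at 57.0 CPM or more in *brat* mutants and at 46.2 CPM or less in *brat* hets (log2 fold change 0.61, adjusted p = 0.12). *mRpL15* stood at 49.4 CPM or more against 40.04 CPM or less (0.80, adjusted p = 0.0572), and *mRpS29* at 19.96 CPM or more against 15.3 CPM or less (0.81, adjusted p = 0.0662). At this stage DESeq2 called 6 members between the genotypes and the common fit 12.

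The courses from NC10 to later NC14 were then set beside each other. In *brat* mutants 34 members were higher and 18 lower at later NC14 (43.6% and 36.5% of all genes), with a median of 0.32 beside 0.23 over all genes. In *brat* hets 26 were higher and 23 lower (42.9% and 36.6%), with 0.18 beside 0.24. As in *HisRFP*, the split followed the scaling, with 40 and 13 in *brat* mutants and 39 and 14 in *brat* hets under RLE factors, and 5 and 27, and 7 and 26, under library totals. The median of all genes moved as well, to 0.49 and 0.55 with RLE factors and to -0.24 and -0.15 with library totals.

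A shift common to both genotypes cancels in the difference between courses. As a test of the interaction, 10 members rose more or fell less in *brat* mutants than in *HisRFP*, and 1 the reverse (5.26% and 3.91% of all genes). The median of the members was 0.35, beside 0.05 over all genes. The 10 were *mRpL54* (1.45), *mRpL15* (1.20), *mRpS31* (1.17), *mRpS17* (1.12), *mRpL41* (0.88), *mRpL50* (0.78), *mRpS29* (0.72), *mRpL39* (0.71), *mRpS22* (0.65) and *mRpL45* (0.51), all as differences in log2 fold change. The reverse was *mRpL20* (-1.14). The total was 7 without *HisRFP* NC10 embryo D, *brat*-mutant NC10 embryo C or *brat*-mutant later NC14 embryo D. Between *brat* hets and *HisRFP*, 0 passed (1.45% of all genes), with 9 at an unadjusted p under 0.05 and 1 by DESeq2, and 1 passed without *brat* het later NC14 embryo C.

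*mRpS17*, a small-subunit protein with a bacterial homologue, shows such a divergence. In *brat*-mutant embryos it went from 30.5, 33.4, 34.0 and 38.3 CPM at NC10 to 57.0, 59.9, 59.9 and 63.2 CPM at later NC14. In *HisRFP* it went from 41.1, 32.9, 39.9 and 33.2 CPM to 30.4, 34.9, 31.6 and 24.2 CPM. The mutant groups did not overlap between the stages and the *HisRFP* groups did. *mRpL15* went from 53.0, 44.8, 48.8 and 48.1 CPM to 56.8, 60.7, 49.4 and 74.7 CPM in *brat* mutants, and from 54.9, 51.8, 50.9 and 53.3 CPM to 33.2, 21.8, 31.1 and 30.2 CPM in *HisRFP*, so its control level dropped while its mutant level did not.

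Summed over the 71 genes, the family took 2584 to 3689 CPM in *HisRFP* oocytes, where oocyte A alone passed 2795 CPM. At early NC14 it took 2002 to 2278 CPM in *HisRFP* and 2346 to 2724 CPM in *brat*-mutant embryos, and at later NC14 1666 to 1727 CPM and 2051 to 2198 CPM, without overlap at either stage. *brat* het embryos at later NC14 spanned both, from 1653 to 2221 CPM. Cytosolic ribosomal protein genes, measured in the same libraries, took a larger and growing share, from 68898 to 105766 CPM in *HisRFP* at NC10 to between 130914 and 153556 CPM at later NC14.

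**Figure D4:**
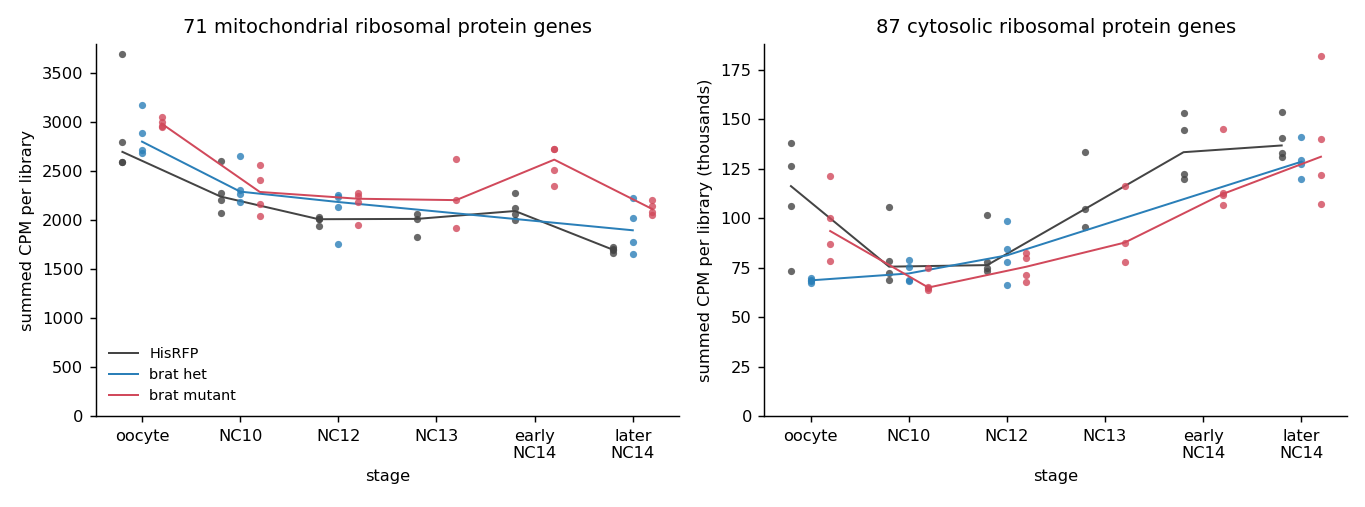
Summed CPM per library (points) of the 71 mitochondrial ribosomal protein genes (left) and of the 87 cytosolic ribosomal protein genes with a level (right, in units of 1000 CPM), by stage, with lines joining group medians. At later NC14 the mitochondrial sum is 1666 to 1727 CPM in *HisRFP* and 2051 to 2198 CPM in *brat*-mutant embryos, while the cytosolic sums of these groups overlap.

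Other genes of mitochondrial gene expression did not all move as this family did at early NC14. Over all genes, 12.7% were higher and 8.90% lower in *brat* mutants at early NC14, and 11.7% and 11.8% at later NC14. The lists are short, and their counts were not tested against these shares. Of 9 mitochondrial translation factors tested, 4 were higher and 1 lower in *brat* mutants. The largest change was in *mRF1*, a peptide release factor, at 44.8 ± 8.05 against 5.12 ± 3.15 CPM (SD, n = 4 each, log2 fold change 3.11, adjusted p = 0.00136), with *mEFTs*, *mIF2* and *mRRF2* also higher and *mIF3* lower. At later NC14 the same list had 0 higher and 1 lower, with a median of -0.02. Of 16 mitochondrial aminoacyl-tRNA synthetases, which charge the tRNAs of this ribosome, 3 were higher and 1 lower, and at later NC14 2 and 0. *Slimp*, a relative of the seryl-tRNA synthetase, stood at 23.3 ± 2.58 against 0.971 ± 0.815 CPM (SD, n = 4 each, 4.53, adjusted p = 0.00104). Of 11 genes for upkeep and transcription of the mitochondrial genome, 2 were higher (*mtDNA-helicase* and *TFAM*) and 1 lower (*mTerf3*), and at later NC14 1 and 1 of 10.

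Genes of oxidative phosphorylation and of the cytosolic ribosome were read beside the family in the same comparison, with the same shares over all genes. Of 62 nuclear genes of oxidative phosphorylation, 2 were higher (*SdhA* and *SdhC*, subunits of the 1 respiratory complex encoded wholly in the nucleus) and 9 lower, with a median of -0.15, and at later NC14 2 and 7. Of 85 cytosolic ribosomal protein genes, 0 were higher and 16 lower, with a median of -0.22, and at later NC14 2 and 4. The members had 22 higher, 3 lower and a median of 0.33, and the difference between lists was not tested. *tko* and *bonsai*, 2 proteins of the mitochondrial small subunit with names of their own, did not pass, at log2 fold changes of -0.43 (adjusted p = 0.0788) and 0.84 (adjusted p = 0.112). In the *HisRFP* course from NC10 to later NC14, 83 of the 85 cytosolic genes rose and 0 fell, beside 16 and 22 of the 71 members and 41.9% and 35.8% of all genes in the same fit.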

How the data were processed

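Single oocytes and embryos were sequenced from TruSeq RNA v2 libraries. The deposited values are raw read counts per gene, which the authors made by aligning reads to dm6 with hisat2 2.1.0, discarding reads with several locations, filtering with SAMtools and counting with featureCounts 1.5.3 at its defaults, without strand, so sense and antisense reads of overlapping genes cannot be told apart. No normalization or low-count filter had been applied. Symbols and dm6 coordinates came from an Ensembl annotation, in which 99.4% of identifiers were found. The members and gene lists were chosen with earlier results of these data known.

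Each comparison was fitted on the libraries of its groups, and each course from NC10 to later NC14 on both stages of the 3 genotypes together. Genes with at least 50 reads were tested by edgeR 4.0.16's quasi-likelihood F-test after TMM scaling in R 4.3.3, with Benjamini-Hochberg adjustment over all genes tested and 0.05 as the threshold. CPM used TMM factors over all 62 libraries, for 10445 genes. Alternatives were DESeq2 1.42.0's Wald test, RLE factors, library totals, filterByExpr, a filter of 1 read, a common fit of all libraries, removal of the eggshell genes (comparisons with oocytes), the replicate letter as a block and each library left out in turn. The tests were tested on simulated data. Tables and figures were made with Python 3.11.15, numpy 2.4.6, pandas 2.3.3 and matplotlib 3.10.9.

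The naming rule took *mRpL4*, *mRpL10*, *mRpL11*, *mRpL12*, *mRpS18A*, *mRpS18B*, *mRpS18C* and *mRpS29*, the 2 largest rises and falls per comparison of genotypes and the 3 largest per named *HisRFP* step (adjusted p under 0.05, groups without overlap, a group mean of at least 5 CPM), and the 3 highest and 3 lowest levels per kilobase. Letters are not said to mark a shared batch. Deviations of same-lettered libraries correlated above 0.1 in every pair only from NC12 to NC13 in *HisRFP* (r from 0.23 to 0.52 across genes).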

Additional observations from a re-analysis of the deposited data

Results flagged for a closer look

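Each group of 4 libraries of a named member was searched for a library far from the other 3, and 33 of 378 groups (8.73%) held such a library, where chance flags about 1 in 20 groups. The values came from 20 libraries. *HisRFP* oocyte A was apart for *mRpL2* (35.4 CPM), *mRpL4* (61.4), *mRpL11* (40.1) and *mRpL46* (57.2), each the highest of its group, and its eggshell sum was the lowest of the *HisRFP* oocytes. *HisRFP* oocyte B was lowest for *mRpL28* (55.9 CPM). *brat*-mutant early NC14 embryo C was highest for *mRpL11* (53.8 CPM), *mRpL28* (114.6), *mRpS6* (92.2) and *mRpS9* (97.9). *brat* het oocyte C was highest for *mRpL18* (32.7 CPM), *mRpL20* (39.3) and *mRpS25* (35.6).

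At NC10, *brat*-mutant embryo A was highest for *mRpL38* (45.2 CPM) and *mRpL18* (24.5), *HisRFP* embryo A for *mRpL12* (147) and *mRpS34* (15.6), *brat* het embryo D for *mRpL4* (72.9) and *mRpS18B* (60.2), and *brat* het embryo B for *mRpS6* (42.0). At NC12, *brat*-mutant embryo A was lowest for *mRpL4* (50.8 CPM) and *mRpL41* (6.57), *HisRFP* embryo A highest for *mRpL20* (16.9), *HisRFP* embryo C highest for *mRpL1* (141), *brat* het embryo A highest for *mRpL38* (2.77) and *brat* het embryo C lowest for *mRpL36* (8.87). At early NC14, *HisRFP* embryo D was highest for *mRpL2* (1.94 CPM) and *HisRFP* embryo A lowest for *mRpS29* (14.7). At later NC14, *brat*-mutant embryo A was highest for *mRpL4* (68.3 CPM) and lowest for *mRpS25* (3.001), *HisRFP* embryo B lowest for *mRpL21* (3.85), *HisRFP* embryo D highest for *mRpS25* (5.74) and *brat* het embryo C highest for *mRpL2* (12.3). *brat*-mutant oocyte D was highest for *mRpL1* (141 CPM).

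The change from NC10 to later NC14 differed between *brat* mutants and *HisRFP*, by the interaction test, for 11 members. The differences in log2 fold change, *brat* mutant minus *HisRFP*, were 1.20 for *mRpL15*, -1.14 for *mRpL20*, 0.71 for *mRpL39*, 0.88 for *mRpL41*, 0.51 for *mRpL45*, 0.78 for *mRpL50*, 1.45 for *mRpL54*, 1.12 for *mRpS17*, 0.65 for *mRpS22*, 0.72 for *mRpS29* and 1.17 for *mRpS31*.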

How the results depend on the processing

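Values are counts of members called. The shares of all genes under the same settings are not given, so the counts show only how far the calls depend on the processing. With the replicate letter as a block, *brat* mutants against *HisRFP* gave 1 at NC10, 2 at NC12, 0 at NC13, 13 at early and 9 at later NC14, *brat* hets against *HisRFP* 1 at NC12 and 1 at later NC14, *brat* mutants against hets 0 in oocytes, and the *HisRFP* steps into and out of early NC14 1 and 15. By DESeq2, *brat* mutants against *HisRFP* gave 1, 2, 13 and 11 from oocytes to NC13, *brat* hets against *HisRFP* 2, 3, 9 and 8, mutants against hets 4, 3 and 6 (oocytes, NC12, later NC14), the step into early NC14 1 and the het interaction 1. The common fit gave 2 and 14 (*brat*-mutant oocytes, NC13), 1, 0 and 8 (het oocytes, NC10, later NC14), 0 and 12 (mutants against hets, oocytes and later NC14), 5 and 40 (into and out of early NC14) and 1 (het interaction). Without the filter the counts were 2 (*brat*-mutant NC10), 1 and 0 (hets at NC12 and later NC14), 0 and 0 (mutants against hets, oocytes and NC12) and 6 (mutant interaction). RLE factors and filterByExpr each gave 1 for hets at later NC14. Library totals gave 0 (mutants against hets, oocytes), 32 (the *brat*-mutant course) and 7 (mutant interaction).

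Leaving out each library in turn gave, for *brat* mutants against *HisRFP* from oocytes to later NC14, 0 to 0, 0 to 4, 3 to 9, 0 to 3, 14 to 24 and 12 to 20 members, for *brat* hets against *HisRFP* 0 to 5, 0 to 2, 1 to 3 and 0 to 3, and for mutants against hets 0 to 2 in oocytes and 0 to 1 at NC12. The *HisRFP* steps gave 16 to 28 (oocyte to NC10) and 0 to 20 (NC12 to NC13), and the interactions 7 to 12 (mutants) and 0 to 1 (hets). Of 515 values for named members, 428 kept their direction and call, 87 lost the call (60 with a library left out) and 0 reversed. The members' median stayed positive in *brat* mutants against *HisRFP* from NC12 to later NC14 under every alternative. Where counts moved, the cause was not tested. Cleared members had as few as 0 reads in an embryo, also in the deepest groups, which limits their fold changes.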
